A study of Mus musculus with 12 samples.

Results

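Transcript levels were followed for 10 genes of the mTOR pathway in mouse embryonic stem (ES) cells under inhibition of the mTOR kinase. The genes encode the kinase itself (Mtor), the subunits that define its complexes (Rptor and Rictor), inhibitory subunits (Akt1s1 and Deptor), upstream regulators (Tsc2, Rheb and Ddit4) and direct substrates (Rps6kb1 and Eif4ebp1). They were chosen for their place in the pathway, with earlier results of these data known. Each was matched by symbol among the 54446 gene identifiers listed for each library. All 10 were among the 15727 genes that averaged at least 1 TPM over the 12 libraries and were tested. TPM corrects read numbers for the length of a transcript and gives each library the same sum, so levels of different genes can be set side by side.

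The libraries came from 2 lines, KH and DNMT3ABKO, in 6 groups of 2 replicates. KH cells are the wild-type line of the comparison, and DNMT3ABKO cells lack Dnmt3a and Dnmt3b, the enzymes that place new DNA methylation. Each line was collected without treatment (0 h) and after 72 and 144 h in the mTOR inhibitor INK128, which brings ES cells into a dormant state resembling embryonic diapause. The comparison asked how the transcriptome changes on the way into dormancy, and whether it does so without de novo methylation. The labels write E14 ahead of both line names, whereas the methods name the wild-type cells KH2, and the label names are kept here. Both lines were grown on feeders, growth-arrested fibroblasts, and viable single cells were sorted. Each genotype is represented by 1 line, so genotype and line cannot be told apart, and with no untreated culture at 72 or 144 h the inhibitor and the time in culture cannot be told apart either.

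mTOR is a protein kinase that works in a pair of complexes. Complex 1, defined by Raptor (Rptor), reads amino acids, growth factors and energy, and drives protein synthesis by phosphorylating S6 kinase (Rps6kb1) and the translational repressor 4E-BP1 (Eif4ebp1). Complex 2, defined by Rictor, phosphorylates AKT. The GTPase Rheb switches complex 1 on, the tuberous sclerosis complex containing Tsc2 switches Rheb off, and REDD1, the product of Ddit4, acts through that complex in stressed cells. INK128 blocks the kinase site shared by both complexes, and what is described here is transcript level, not kinase activity.

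Libraries of a group correlated across the tested genes with r = 0.985 in DNMT3ABKO cells at 0 h and 0.994 to 0.996 elsewhere, and the residual SD on the log2 scale was 0.272 in that group against 0.133 to 0.176. Dnmt3b stood at 12.7 to 27.5 TPM in the DNMT3ABKO libraries against 142 to 258 TPM in KH, and Dnmt3a at 7.35 to 21.9 TPM against 54.7 to 144 TPM. Summed over 8 ES cell markers, levels were 2249 to 2565 TPM at 0 h and 3483 to 3688 TPM later. Of the 8, 7 were called higher and none lower at both times in KH cells, and in DNMT3ABKO cells 7 were higher and 1 lower (Nanog) at 72 h and 6 higher and 1 lower (Utf1) at 144 h. Summed over 10 fibroblast markers, levels fell from 953 to 1214 TPM at 0 h to 166 to 213 TPM at 72 h and 42.2 to 45.9 TPM at 144 h, and 9 of 9 tested were called lower in every comparison from 0 h. The sum over 8 macrophage markers went from 227 to 280 TPM to 108 to 165 TPM and then 19.7 to 34.7 TPM, with C1qb listed at 0 in both KH libraries at 144 h and Tyrobp in 1 of them, while Cd68 stood at 14.8 and 15.3 TPM in these and at 22.7 and 21.8 TPM in DNMT3ABKO cells at 144 h, against 20.0 to 26.4 TPM at 0 h. Of the 8 macrophage markers, 6 and 8 were called lower at 72 and 144 h in KH cells and 7 at each time in DNMT3ABKO cells. In a bulk sample, fewer cells of a type and less RNA per cell cannot be told apart, and the part these markers play in the results below was not tested. The methods describe experiments as repeated independently, and the labels do not say whether the replicates of a group were separate cultures, so p-values measure the spread between these libraries.

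Under mTOR inhibition the TPM of the kinase, its inhibitor Deptor and the upstream brake Tsc2 rose in both lines, whereas that of Ddit4 and Eif4ebp1 fell. With RNA spike-ins, the study reported a global fall in transcription under mTOR inhibition in wild-type and in Dnmt3a/b knockout cells. A rise in TPM is a larger share of a library, and whether it meant more transcript per cell was not tested. In KH cells at 72 h, 8 of the 10 genes were called, 5 higher and 3 lower (limma, Benjamini-Hochberg adjusted p under 0.05 over all tested genes). Over all tested genes the share called in that comparison was 47.8%, with 28.3% higher and 19.5% lower. At 144 h in KH cells 8 were called, 6 higher and 2 lower, against 51.3% of all tested genes (27.4% higher, 23.9% lower). DNMT3ABKO cells had 8 called at 72 h, 6 higher and 2 lower, against 56.0% overall (34.3% and 21.6%), and again 6 higher and 2 lower at 144 h, against 57.6% overall (31.4% and 26.2%). The median absolute log2 fold change of the 10 genes was 0.50 and 0.63 in KH cells at 72 and 144 h, beside 0.30 and 0.33 over all tested genes, and 0.58 and 0.57 in DNMT3ABKO cells, beside 0.36 and 0.38. These medians are not like for like, because the log2(TPM + 1) scale understates changes of low genes. In KH cells at 0 h all of the 10 but Deptor lay above at least 62.4% of tested genes. From 72 to 144 h, 2 of the 10 were called in each line, against 22.9% of tested genes in KH and 27.3% in DNMT3ABKO cells. Over all tested genes the median log2 fold change in DNMT3ABKO cells at 72 h was 0.12, and rescaling the libraries by their median ratio took it to -0.0045, so values in that comparison are lower by about as much relative to the median gene. That rescaling also moved the share of higher calls among all calls at 72 h from 59.1% to 46.3% in KH and from 61.3% to 48.5% in DNMT3ABKO cells. Among the 10 genes it left 5 higher and 3 lower in DNMT3ABKO cells at 72 h, and gave 2 higher and 1 lower in these cells from 72 to 144 h in place of 1 and 1. Rescaling to protein-coding genes gave 7 higher and 2 lower in KH cells at 72 h, and the same 2 and 1 from 72 to 144 h in DNMT3ABKO cells. In that fit, 4513 of 13201 genes were called higher and 3361 lower in KH cells at 72 h. From 72 to 144 h in DNMT3ABKO cells it gave 1544 higher and 3913 lower, and median-ratio rescaling 2491 and 2746 of 15714.

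**Figure D1:**
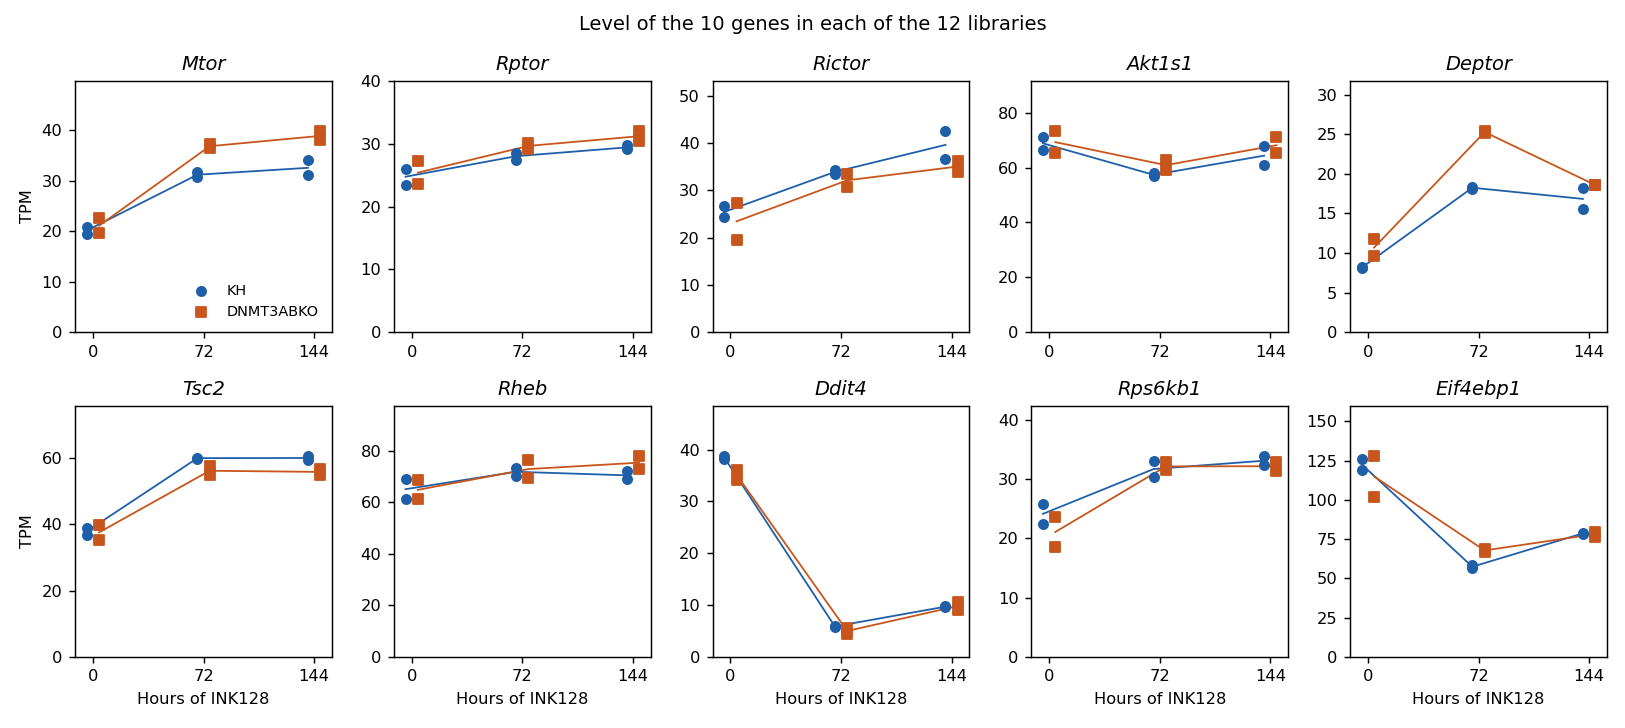
Level of each of the 10 genes in TPM (vertical axes, from 0) against hours of INK128 (horizontal axes), with 1 point per library, blue circles for KH, orange squares for DNMT3ABKO, and lines through the means of 2 libraries. Ddit4 dropped from 34.2 to 38.8 TPM at 0 h to 4.44 to 5.98 TPM at 72 h, and Deptor and Mtor lay higher in every treated library than in every 0 h library.

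The promoters of Ddit4 and Mtor are shown because these genes moved in opposite directions in the same libraries, Ddit4 with the widest range of group means among the 10 and Mtor as the kinase itself. Sequences are from RefSeq (GRCm38.p6), and 8 of the 10 genes matched its promoter table, which does not list Deptor and Eif4ebp1. The Ddit4 window is chr10:59951835-59952020 on the minus strand, 186 bases that end 65 bases before the RefSeq start because the deposited gene model begins there. The Mtor window is chr4:148448332-148448581 on the plus strand, the 250 bases before the RefSeq start. Capitals mark matches, on either strand, to 6 motifs searched. They were the hypoxia response core ACGTG, which is also part of the E-box, the box named for its letters CCAAT, the GC box written GGGCGG, an ETS site written CCGGAAG, the E-box written CACGTG and a C/EBP-ATF site written TGATGCAA.
Ddit4: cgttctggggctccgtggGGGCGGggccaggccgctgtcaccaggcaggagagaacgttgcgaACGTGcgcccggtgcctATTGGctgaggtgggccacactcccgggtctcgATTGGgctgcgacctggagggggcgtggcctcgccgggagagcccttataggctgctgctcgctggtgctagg
Mtor: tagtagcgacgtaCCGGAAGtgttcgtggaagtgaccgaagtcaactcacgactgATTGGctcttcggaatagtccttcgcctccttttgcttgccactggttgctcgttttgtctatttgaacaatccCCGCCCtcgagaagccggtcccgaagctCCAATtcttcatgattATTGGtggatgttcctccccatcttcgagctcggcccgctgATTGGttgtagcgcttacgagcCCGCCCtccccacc
The Ddit4 window, with a GC content of 69.9%, held ACGTG once, 187 to 183 bases before the start, CCAAT in 2 places and GGGCGG once. Among 32544 distinct promoters cut to the same window, 11.8% held ACGTG, 25.9% CCAAT and 22.2% GGGCGG. In the Mtor window, with a GC content of 54.4%, CCAAT occurred in 4 places, GGGCGG in 2 and CCGGAAG once, 237 to 231 bases before the start. The shares of promoters with a match in that window were 33.8%, 33.0% and 6.95%. No match to CACGTG or TGATGCAA was found in either window, no CCGGAAG in that of Ddit4 and no ACGTG in that of Mtor. A match describes letters only.

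Mtor (ENSMUSG00000028991.15, chromosome 4, 148448611 to 148557683 in mm10) encodes the kinase that INK128 inhibits. In KH cells it stood at 19.4 and 20.9 TPM at 0 h, 31.7 and 30.7 TPM at 72 h, and 34.0 and 31.1 TPM at 144 h. In DNMT3ABKO cells the values were 19.6 and 22.5, then 36.4 and 37.3, then 39.8 and 37.9 TPM. All 8 treated libraries lay above all 4 untreated ones. The log2 fold change in KH cells was 0.61 at 72 h (SE 0.08, limma adjusted p = 0.000282) and 0.67 at 144 h, and in DNMT3ABKO cells 0.78 (SE 0.08, adjusted p = 3.76e-05) and 0.86. Mean levels at 144 h were 162% and 184% of those at 0 h in KH and DNMT3ABKO cells. Between 72 and 144 h the change was 0.06 in KH (95% interval -0.13 to 0.24) and 0.08 in DNMT3ABKO cells (-0.11 to 0.26), neither called.

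Rptor (ENSMUSG00000025583.15, chromosome 11, 119602905 to 119899576) encodes Raptor, the scaffold that brings substrates to complex 1. It moved little, from 23.5 and 26.1 TPM in KH cells at 0 h to 28.6 and 27.5 at 72 h and 29.8 and 29.2 at 144 h. In DNMT3ABKO cells it went from 23.6 and 27.3 TPM to 30.2 and 29.3 and then 32.0 and 30.5. Treated libraries lay above the untreated ones of their line, although the gap was small. The log2 fold change was called in KH cells at 144 h (0.24, limma adjusted p = 0.0356) and in DNMT3ABKO cells at 72 h (0.22, adjusted p = 0.0489) and 144 h (0.29, adjusted p = 0.0142), but not in KH cells at 72 h (0.17, adjusted p = 0.117, 95% interval -0.01 to 0.36). Each of the 3 calls was lost in several alternatives, and without DNMT3ABKO 0 h replicate 1 the 72 h value was 0.12 (adjusted p = 0.24) and the 144 h value 0.19 (adjusted p = 0.0696). Leaving out KH 0 h replicate 1 took the KH value at 144 h to 0.17 (adjusted p = 0.202). With the replicate number as a block, the calls in KH cells at 144 h (adjusted p = 0.0661) and in DNMT3ABKO cells at 72 h (0.0856) were lost.

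Rictor (ENSMUSG00000050310.9, chromosome 15, 6708379 to 6800401), the defining subunit of complex 2, rose more than Rptor in value. In KH cells its levels were 24.3 and 26.6 TPM at 0 h, 33.5 and 34.3 TPM at 72 h, and 42.5 and 36.7 TPM at 144 h. In DNMT3ABKO cells they were 19.6 and 27.3, then 33.6 and 30.7, then 33.9 and 36.2 TPM. The untreated DNMT3ABKO libraries differed from each other by more than those of any other group did, yet both lay below all treated libraries. The log2 fold change was 0.40 at 72 h and 0.62 at 144 h in KH cells (SE 0.14, limma adjusted p = 0.0327 and 0.00358) and 0.46 and 0.58 in DNMT3ABKO cells (adjusted p = 0.0162 and 0.00435). The 144 h calls held in every alternative. With no filter the 72 h calls were lost in KH (limma adjusted p = 0.0963) and in DNMT3ABKO cells (0.0511). The 72 h call in DNMT3ABKO cells was also lost with only the groups compared (adjusted p = 0.0892). The 72 h call in KH cells was lost without any 1 of its 4 libraries (adjusted p = 0.0596 to 0.153), and that in DNMT3ABKO cells without 0 h replicate 1 (0.23, adjusted p = 0.0869) or 72 h replicate 1 (0.39, adjusted p = 0.0961).

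The inhibitory subunits went different ways. Akt1s1 (ENSMUSG00000011096.17, chromosome 7, 44848991 to 44855421) encodes PRAS40, an inhibitor bound to Raptor. In KH cells Akt1s1 was at 71.2 and 66.4 TPM at 0 h, 56.8 and 57.9 TPM at 72 h, and 60.9 and 67.8 TPM at 144 h. In DNMT3ABKO cells Akt1s1 was at 73.2 and 65.3, 59.1 and 62.6, and 65.1 and 71.1 TPM. Only the 72 h libraries lay apart from those of 0 h, while those of 144 h overlapped them. The fall in KH cells at 72 h was called (log2 fold change -0.26, SE 0.08, limma adjusted p = 0.0279), and the value in DNMT3ABKO cells was -0.18 (adjusted p = 0.0897). Under median-ratio rescaling the DNMT3ABKO value was -0.32 and called (adjusted p = 0.0251). The KH call was lost with no filter (adjusted p = 0.0577) and under protein-coding rescaling (0.0503). That call was lost without KH 0 h replicate 1 (adjusted p = 0.144) or either KH 72 h library (0.117 and 0.0909), and under a replicate block (0.0541). Without DNMT3ABKO 0 h replicate 2 the value in DNMT3ABKO cells was -0.26 and called (adjusted p = 0.0225). Akt1s1 overlaps Tbc1d17 on the opposite strand by 89 bases (12.9 to 33.7 TPM), and counting is not stated to use strand.

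Deptor (ENSMUSG00000022419.16, chromosome 15, 55112317 to 55259271) encodes an inhibitor that binds the kinase in both complexes. It was the lowest of the 10 genes at 0 h, with 8.10 and 8.21 TPM in KH and 9.57 and 11.8 TPM in DNMT3ABKO cells. At 72 h it reached 18.1 and 18.4 TPM in KH and 25.4 and 25.2 TPM in DNMT3ABKO cells, and at 144 h it was at 18.2 and 15.5 TPM and at 18.5 and 18.6 TPM. No treated library overlapped an untreated one, and in DNMT3ABKO cells the 72 h libraries were the highest of all. The log2 fold change was 1.07 and 0.96 in KH cells at 72 and 144 h (SE 0.10, limma adjusted p = 3.18e-05 and 4.07e-05) and 1.18 and 0.75 in DNMT3ABKO cells (adjusted p = 9.68e-06 and 0.000139). From 72 to 144 h Deptor fell in DNMT3ABKO cells (-0.42, adjusted p = 0.0119), a call lost without any 1 of the 4 libraries (adjusted p = 0.0606 to 0.0692). The value in KH cells was -0.11 (adjusted p = 0.482, 95% interval -0.34 to 0.11), and the difference between these 2 changes was not tested.

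**Figure D2:**
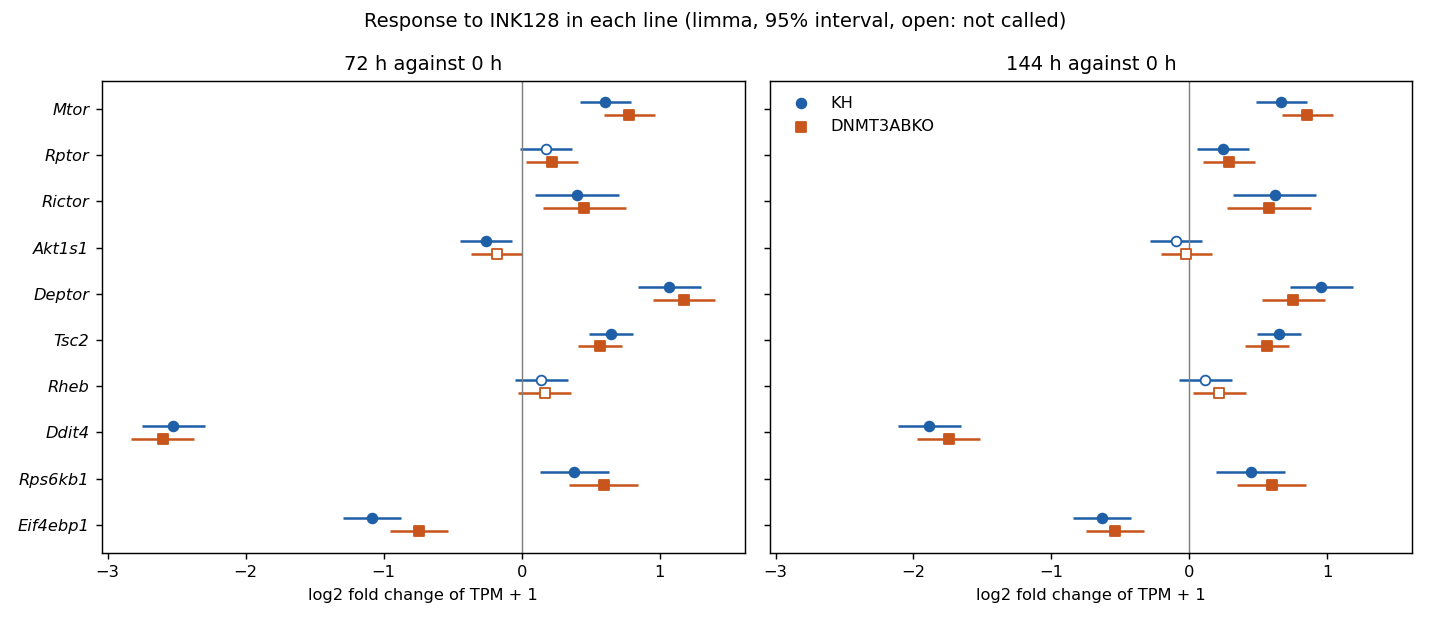
Log2 fold change of TPM + 1 (horizontal axis) of each of the 10 genes at 72 h and at 144 h against 0 h, in KH (blue circles) and DNMT3ABKO cells (orange squares), with 95% intervals from limma, filled where called. Deptor, Mtor and Tsc2 lie to the right and Ddit4 and Eif4ebp1 to the left in all 4 comparisons, whereas Rheb is open in all 4.

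Tsc2 (ENSMUSG00000002496.10, chromosome 17, 24595816 to 24632630) encodes tuberin, the part of the tuberous sclerosis complex that turns Rheb off. In KH cells it rose from 36.7 and 39.0 TPM to 60.1 and 59.8 TPM at 72 h and stayed at 60.6 and 59.4 TPM at 144 h. In DNMT3ABKO cells it rose from 35.4 and 39.7 TPM to 54.8 and 57.5 TPM and then stood at 56.6 and 55.0 TPM. The treated libraries lay together, well above the untreated ones. The log2 fold change was 0.65 at both times in KH cells (SE 0.07, limma adjusted p = 7.48e-05 and 4.75e-05) and 0.57 and 0.56 in DNMT3ABKO cells (adjusted p = 0.000101 and 8.87e-05). Its partner Tsc1 had values of 0.10 in KH and 0.15 in DNMT3ABKO cells at 72 h, neither called. At 144 h they were 0.43 and 0.33, both called (adjusted p = 0.00243 and 0.00798). From 72 to 144 h the rise of Tsc1 was called in KH cells (0.33) but not in DNMT3ABKO cells (0.18). The ratio of Tsc2 to Tsc1 TPM within a library was 3.22 to 3.48 in KH cells at 0 h, 4.91 to 4.94 at 72 h and 3.68 to 4.04 at 144 h. Tsc2 overlaps Pkd1 on the opposite strand by 693 bases (4.0 to 7.51 TPM).

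Rheb (ENSMUSG00000028945.9, chromosome 5, 24802823 to 24842624), the GTPase that activates complex 1, had the narrowest range of group means among the 10 genes, 0.22 on the log2 scale. Its levels were 61.2 and 68.9 TPM in KH cells at 0 h, 73.4 and 70.3 TPM at 72 h, and 68.9 and 72.0 TPM at 144 h. In DNMT3ABKO cells they were 61.1 and 68.6, 76.2 and 69.6, and 72.7 and 78.0 TPM. Treated libraries were higher or level with the upper untreated one. No response of Rheb was called, with values from 0.11 to 0.22, and the value nearest the threshold was that of DNMT3ABKO cells at 144 h (adjusted p = 0.0526, 95% interval 0.02 to 0.41). That value was called under both rescalings and without DNMT3ABKO 0 h replicate 2 (0.30, adjusted p = 0.0146) or either KH 0 h library (adjusted p = 0.0446). Of the other responses, that of KH cells at 72 h was called under protein-coding rescaling (0.15, adjusted p = 0.0483) and that of DNMT3ABKO cells at 72 h without DNMT3ABKO 0 h replicate 2 (0.25, adjusted p = 0.0329). Its paralog Rhebl1 was called higher at 72 h, at 0.29 in KH and 0.27 in DNMT3ABKO cells (adjusted p = 0.0361 and 0.0385).

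Ddit4 (ENSMUSG00000020108.4, chromosome 10, 59949669 to 59951834), whose promoter is printed above, showed the largest change of the 10 genes. Its product REDD1 is an inhibitor of complex 1 that cells make under hypoxia, energy stress and DNA damage. In KH cells it fell from 38.8 and 38.2 TPM to 5.74 and 5.98 TPM at 72 h, and stood at 9.82 and 9.54 TPM at 144 h. In DNMT3ABKO cells it went from 36.1 and 34.2 TPM to 5.52 and 4.44 TPM and then to 10.5 and 9.07 TPM. The 3 time points did not overlap in either line, with 72 h lowest. Mean TPM was 6.56-fold lower at 72 h and 3.97-fold lower at 144 h than at 0 h in KH cells, and 7.05-fold and 3.58-fold lower in DNMT3ABKO cells. On the log2 scale the change was -2.52 and -1.89 in KH (SE 0.10, limma adjusted p = 2.56e-07 and 3.89e-07) and -2.60 and -1.75 in DNMT3ABKO cells (adjusted p = 9.16e-08 and 3.59e-07). Of the 15727 tested genes, 11 had a lower value at 72 h in KH and 29 in DNMT3ABKO cells. The rise from 72 to 144 h was called in both lines, at 0.64 in KH (adjusted p = 0.00185) and 0.86 in DNMT3ABKO cells (adjusted p = 0.000199). All 6 of these calls held in every alternative. Fibroblast markers fell together with Ddit4 from 0 to 72 h and fell again to 144 h, and their part in its change was not tested.

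The paralog Ddit4l, another inhibitor of mTOR signalling, did not follow Ddit4 in DNMT3ABKO cells. It fell in KH cells, from 5.37 and 5.07 TPM to 2.36 and 1.96 TPM at 72 h (log2 fold change -0.98, limma adjusted p = 0.000139). In DNMT3ABKO cells it went from 7.57 and 6.05 TPM to 6.02 and 5.68 TPM at 72 h, which was not called (adjusted p = 0.218), and to 13.6 and 15.3 TPM at 144 h (0.99, adjusted p = 6.35e-05). Sesn2, a stress-induced inhibitor and leucine sensor upstream of complex 1, moved as Ddit4 did. It fell by 1.09 and 0.94 on the log2 scale at 72 h in KH and DNMT3ABKO cells and rose again by 0.81 and 0.69 to 144 h (adjusted p = 0.000201 and 0.000355).

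Rps6kb1 (ENSMUSG00000020516.15, chromosome 11, 86498871 to 86544805) encodes S6 kinase 1, which complex 1 activates by phosphorylation. In KH cells it rose from 22.4 and 25.9 TPM to 30.4 and 33.0 TPM at 72 h and 32.3 and 33.9 TPM at 144 h. In DNMT3ABKO cells it rose from 18.5 and 23.6 TPM to 32.8 and 31.5 TPM and 31.4 and 32.9 TPM. Treated and untreated libraries did not overlap. Log2 fold changes were 0.38 and 0.44 in KH cells (SE 0.11, limma adjusted p = 0.0178 and 0.00767) and 0.60 at both times in DNMT3ABKO cells (adjusted p = 0.00131 and 0.00114). The KH call at 72 h was lost with no filter (adjusted p = 0.0511). Without KH 0 h replicate 1 both KH calls were lost (adjusted p = 0.124 and 0.0639), as was that at 72 h without KH 72 h replicate 2 (0.112) and that at 144 h without KH 144 h replicate 2 (0.0502). Its paralog Rps6kb2 also rose, by 0.43 and 0.26 in KH and 0.35 and 0.33 in DNMT3ABKO cells, all 4 called (adjusted p = 0.00409, 0.0394, 0.00953 and 0.0118). Rps6kb1 overlaps Rnft1 on the opposite strand by 155 bases (4.84 to 9.56 TPM).

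Eif4ebp1 (ENSMUSG00000031490.6, chromosome 8, 27260329 to 27276674) encodes 4E-BP1, which binds the cap-binding protein eIF4E and releases it once complex 1 has phosphorylated it. Its KH levels fell from 119 and 126 TPM to 58.4 and 56.3 TPM at 72 h and were 78.9 and 78.4 TPM at 144 h. Its DNMT3ABKO levels fell from 102 and 128 TPM to 66.6 and 68.9 TPM and were 79.8 and 76.5 TPM at 144 h. In both lines the untreated libraries were highest and those of 72 h lowest, with no overlap. Log2 fold changes were -1.08 and -0.63 in KH cells (SE 0.09, limma adjusted p = 1.83e-05 and 0.000341) and -0.74 and -0.54 in DNMT3ABKO cells (adjusted p = 0.000108 and 0.000726). From 72 to 144 h it rose by 0.45 in KH cells (adjusted p = 0.00753), a call lost without KH 72 h replicate 2 (0.42, adjusted p = 0.0585). The value in DNMT3ABKO cells was 0.20 (adjusted p = 0.141, 95% interval -0.01 to 0.41), and it was called under both rescalings (adjusted p = 0.00916 and 0.0415), with only those groups fitted (0.0211) and without either DNMT3ABKO 0 h library (0.0116).

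The fall of Eif4ebp1 changed its standing among the 4E-BP genes. Eif4ebp2, which encodes a second 4E-BP, stood at 65.6 to 84.6 TPM in all 12 libraries and was not called in any of the 11 comparisons (unadjusted p under 0.05 in none of them). Eif4ebp1 was at 1.49 to 1.64 times the level of Eif4ebp2 in untreated libraries, 0.736 to 0.893 times at 72 h and 0.966 to 1.05 times at 144 h. Eif4ebp3 was near the filter at 0.183 to 1.85 TPM. It rose in KH cells, by 1.21 at 72 h and 0.90 at 144 h (limma adjusted p = 4.07e-05 and 0.000179), and had values of -0.04 and -0.05 in DNMT3ABKO cells (adjusted p = 0.775 and 0.766), where it was at about 1 TPM throughout. Eif4e itself differed widely between replicates (75.6 and 117 TPM in KH cells at 0 h), and none of its responses was called.

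**Figure D3:**
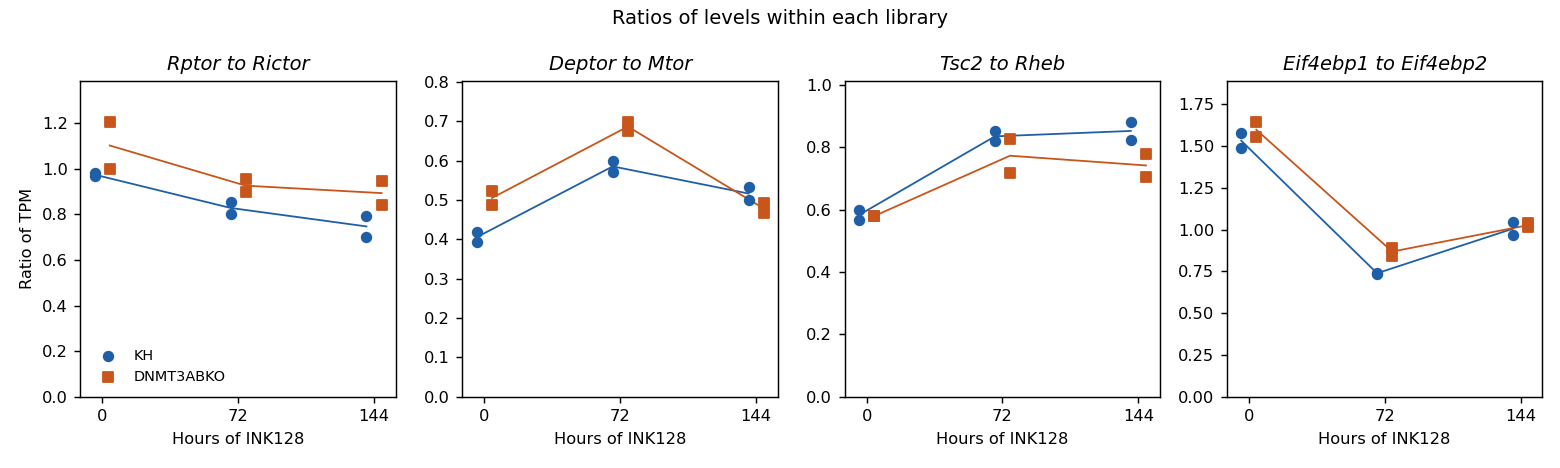
Ratio of 2 TPM levels within each library (vertical axes, from 0) against hours of INK128, for Rptor to Rictor, Deptor to Mtor, Tsc2 to Rheb and Eif4ebp1 to Eif4ebp2, with blue circles for KH, orange squares for DNMT3ABKO, 1 point per library and lines through means. The ratio of Eif4ebp1 to Eif4ebp2 was 1.49 to 1.64 at 0 h and below 1 in every 72 h library.

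Ratios of other pairs are given as descriptions, with no test. Rptor to Rictor was 0.968 to 0.981 in KH cells at 0 h and 0.70 to 0.794 at 144 h, and 1.00 to 1.20 and 0.841 to 0.945 in DNMT3ABKO cells. Deptor to Mtor was 0.393 to 0.418 in KH cells at 0 h and 0.572 to 0.599 at 72 h, and 0.487 to 0.523 and 0.675 to 0.698 in DNMT3ABKO cells. In DNMT3ABKO cells at 144 h it was back at 0.466 to 0.491, within or below its range at 0 h. Tsc2 to Rheb went from 0.566 to 0.600 in KH cells at 0 h to 0.819 to 0.851 at 72 h.

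The order of the levels changed with treatment. At 0 h Eif4ebp1 was highest in both lines (means of 123 TPM for KH and 115 TPM for DNMT3ABKO), followed by Akt1s1 and Rheb, which overlapped, and Deptor was lowest. Ddit4 and Tsc2 overlapped next, above Rictor, Rptor and Rps6kb1, which overlapped in turn, and Mtor followed, overlapping Rps6kb1 in DNMT3ABKO cells. At 72 h Rheb was highest (71.9 and 72.9 TPM) and Ddit4 lowest (5.86 and 4.98 TPM), without overlap with their neighbours. At 144 h Eif4ebp1 was again first (78.6 and 78.2 TPM), overlapping Rheb in DNMT3ABKO cells, and Ddit4 remained last. Among all tested genes, Ddit4 went from above 76.9% of group means in KH cells at 0 h to above 33.8% at 72 h, and Deptor from 42.0% to 58.6%.

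Genes whose levels followed most closely those of the 3 members with the widest range of group means were found by Pearson r of log2(TPM + 1) over the 12 libraries, among 12565 protein-coding genes. For Ddit4 they were Mrfap1 (r = 0.991), Ddx18 (0.990), an RNA helicase, and Aldh18a1 (0.989), an enzyme of proline synthesis, which went from a mean of 48.6 TPM to 14.7 and 20.4 TPM in KH cells. For Deptor they were Dopey2 (0.990), Dact1 (0.983) and Tex14 (0.983), and for Eif4ebp1 they were Gusb (0.985), Mthfd2 (0.983), an enzyme of mitochondrial folate metabolism that went from 101 TPM to 18.0 and 31.1 TPM in KH cells, and Coro1c (0.978). The libraries fall into time points that many genes separate, and 357, 494 and 199 genes had an r over 0.9 to Ddit4, Deptor and Eif4ebp1.

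The comparison of the lines asked whether loss of the methyltransferases shifts these genes. At 0 h none of the 10 was called (limma, 1 at unadjusted p under 0.05), against 9.06% of all tested genes. At 72 h Deptor alone was called, against 19.3%, and at 144 h none was called (1 at unadjusted p under 0.05), against 26.5%. The median absolute difference over the 10 genes was 0.08, 0.09 and 0.09 on the log2 scale at the 3 times, beside 0.15, 0.17 and 0.20 over all tested genes. These medians are not like for like either, because all of the 10 but Deptor lay above at least 62.4% of tested genes in KH cells at 0 h. Deptor was higher in DNMT3ABKO cells by 0.45 at 72 h (SE 0.10, adjusted p = 0.0128, 95% interval 0.22 to 0.68), and both DNMT3ABKO libraries exceeded both KH libraries. The call was lost without any 1 of those 4 libraries (adjusted p = 0.0694 to 0.0828). The Deptor difference was 0.34 at 0 h (adjusted p = 0.0681) and 0.14 at 144 h (adjusted p = 0.355, 95% interval -0.09 to 0.37). At 0 h it was called under median-ratio and protein-coding rescaling (0.39 and 0.40, adjusted p = 0.0106 and 0.00814) and without DNMT3ABKO 0 h replicate 1 (0.48, adjusted p = 0.0122).

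Mtor was higher in DNMT3ABKO cells by 0.23 at 72 h and 0.25 at 144 h in value, with no overlap between the lines' libraries, and missed the threshold at both times (limma adjusted p = 0.0806 and 0.0506, 95% intervals 0.05 to 0.42 and 0.06 to 0.44). Both rescalings, a fit of those groups alone and leaving out either DNMT3ABKO 0 h library brought it past the threshold at both times. These were 5 of the 18 alternatives, and leaving out a 0 h library left the value itself unchanged. Eif4ebp1 differed by 0.24 at 72 h (adjusted p = 0.112, 95% interval 0.03 to 0.45), which the same alternatives also brought past the threshold. Genes of chromosome 8, where Eif4ebp1 lies, had a median difference of -0.14, -0.12 and -0.18 at 0, 72 and 144 h over 791 genes, beside -0.05, -0.04 and -0.04 over all tested genes. At 0 h without DNMT3ABKO replicate 2, Eif4ebp1, Rictor and Rps6kb1 were called lower in DNMT3ABKO cells (-0.26, -0.36 and -0.36, adjusted p = 0.0126, 0.0256 and 0.019), beside -0.10, -0.13 and -0.19 with it. The intervals of the other differences lay within -0.47 to 0.29.

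**Figure D4:**
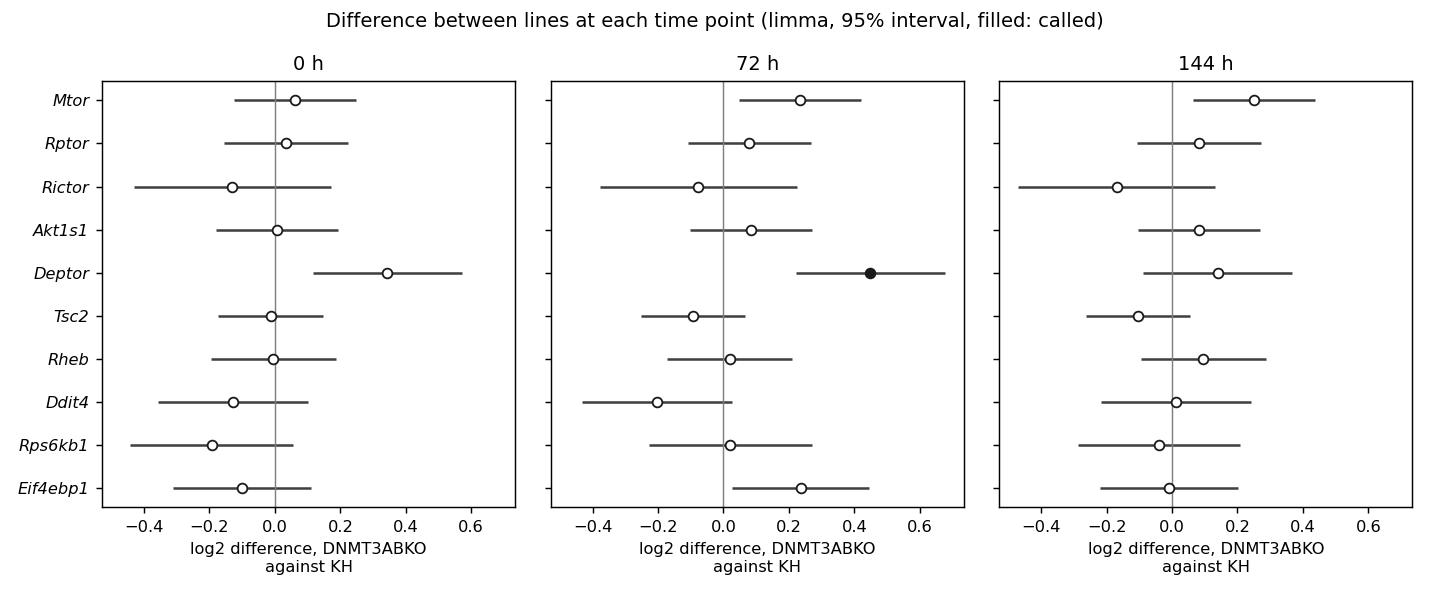
Difference in log2(TPM + 1), DNMT3ABKO against KH (horizontal axis, positive where higher in DNMT3ABKO), for each of the 10 genes at 0, 72 and 144 h, with 95% intervals from limma, filled where called. Deptor at 72 h is the 1 filled point, at 0.45.

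The responses of the lines were then compared directly, as the difference between DNMT3ABKO and KH in the change from 0 h. None of the 10 genes was called at 72 h (limma, 1 at unadjusted p under 0.05, against 5.23% of tested genes called) or at 144 h (0 at unadjusted p under 0.05, against 8.59%). The widest difference was that of Eif4ebp1 at 72 h, 0.34 (SE 0.13, adjusted p = 0.211, 95% interval 0.04 to 0.63), a smaller fall in DNMT3ABKO cells. Without DNMT3ABKO 0 h replicate 2 it was 0.50 and called (adjusted p = 0.00447), as was the 144 h difference (0.26 in place of 0.09, adjusted p = 0.048). For Ddit4 the difference was -0.08 at 72 h (95% interval -0.40 to 0.25) and 0.14 at 144 h (-0.18 to 0.47), and for Deptor 0.11 (-0.22 to 0.43) and -0.20 (-0.53 to 0.12). These intervals leave room for differences of a size similar to the smaller responses.

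The rest of the pathway was read from 73 further genes, all tested. Of these, 32 were called in KH cells at 72 h (19 higher, 13 lower) and 39 at 144 h (22 and 17), and 40 (24 and 16) and 41 (21 and 20) in DNMT3ABKO cells, shares of 43.8%, 53.4%, 54.8% and 56.2%. These lie near the shares over all tested genes given above. Castor1, an arginine sensor that restrains complex 1, fell furthest. It went from 38.3 and 41.0 TPM to 13.7 and 12.8 and then 11.3 and 12.4 TPM in KH cells, and from 53.0 and 53.3 TPM to 15.1 and 15.6 and then 11.6 and 10.6 TPM in DNMT3ABKO cells (log2 fold change -1.66 and -2.16 at 144 h, limma adjusted p = 1.79e-07 and 1.68e-08). Akt1, the kinase that relays growth factor signals to the tuberous sclerosis complex, fell by 1.04 and 1.23 at 144 h (adjusted p = 9.54e-06 and 1.72e-06). Pdcd4, a translational inhibitor that S6 kinase marks for degradation, rose by 1.34 and 1.30, from 18.4 and 20.7 TPM to 50.5 and 51.3 TPM in KH cells (adjusted p = 1.09e-06 and 7.56e-07).

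By group at 144 h, where 51.3% of all tested genes were called in KH and 57.6% in DNMT3ABKO cells, 2 of 7 complex subunits and assembly factors were called higher in KH cells and none lower, and 2 higher and 1 lower in DNMT3ABKO cells. Mlst8, the subunit common to both complexes, was not called, with a value of 0.01 in KH (adjusted p = 0.932) and 0.09 in DNMT3ABKO cells (adjusted p = 0.501). Of the 22 genes of the amino acid branch, 6 were higher and 7 lower in KH, and 8 and 7 in DNMT3ABKO cells. In the growth factor branch, from insulin receptor to AKT, 6 of 15 were higher and 2 lower in KH cells, and 3 higher and 6 lower in DNMT3ABKO cells. The difference in response itself was called for 2 of these 15 (13.3%), against 8.59% of all tested genes. Among 15 other substrates and their targets the counts were 6 and 4, and 3 and 2. Of the 7 genes of the AMPK branch, which senses energy, 1 was lower in KH cells, and 2 were higher and 1 lower in DNMT3ABKO cells. The 4 stress inhibitors beside Ddit4 gave 1 higher and 2 lower in KH cells and 2 of each in DNMT3ABKO cells, and the 3 genes of the Tsc and Rheb side gave 1 of each in both lines.

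**Figure D5:**
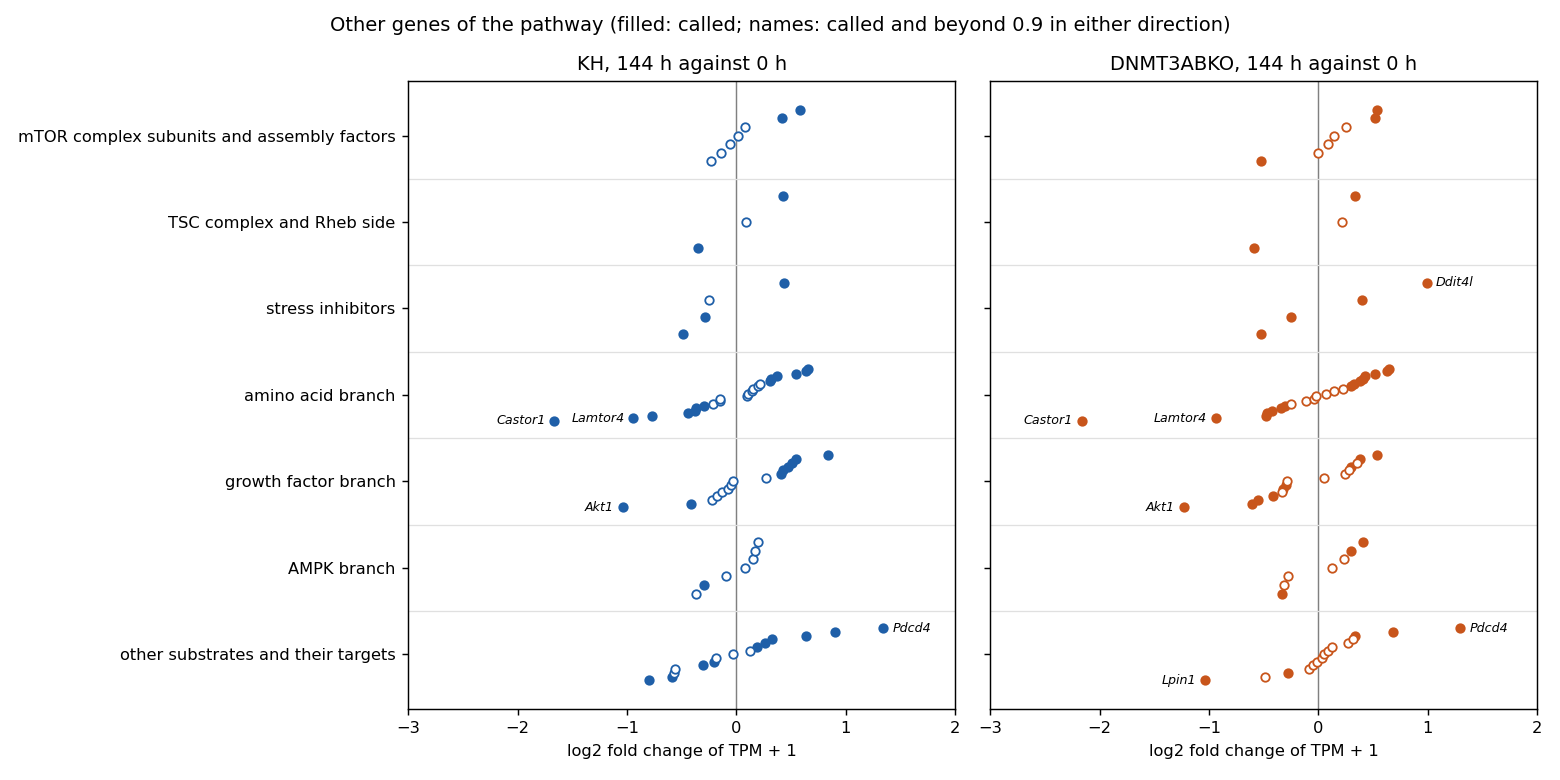
Log2 fold change of TPM + 1 at 144 h against 0 h (horizontal axis) for 73 further genes of the pathway in 7 groups (vertical axis), in KH (left) and DNMT3ABKO cells (right), filled where called by limma and named where called and beyond 0.9 in either direction. Castor1 lies furthest left in both lines, at -1.66 and -2.16, and Pdcd4 furthest right, at 1.34 and 1.30.

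Between the lines, 9 of the 73 genes were called at 0 h, 13 at 72 h and 17 at 144 h, shares of 12.3%, 17.8% and 23.3% beside 9.06%, 19.3% and 26.5% of all tested genes. Grb10, an adaptor that dampens insulin receptor signalling and a substrate of complex 1, was higher in DNMT3ABKO cells by 0.45, 1.18 and 1.16 at the 3 times (limma adjusted p = 0.0211, 2.39e-05 and 1.73e-05). Ddit4l was higher by 1.12 at 72 h and 1.81 at 144 h (adjusted p = 0.000131 and 2.05e-06). Rragb, a Rag GTPase, differed by -0.66 and -0.71 in these cells (adjusted p = 0.000734 and 0.000332).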

How the data were processed

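Total RNA was measured in 12 libraries. Ribosomal RNA was removed after ERCC RNA had been spiked in. The authors aligned reads to mm10 with STAR and quantified GENCODE genes with StringTie, and the submitters' processing notes name cutadapt 2.4, STAR 2.7.3a and StringTie 2.0. Deposited values are TPM, 1 library per table, each summing to 1000000 with no spike-in row, so RNA per cell was not analysed, read depth is unknown, and counting intervals cannot be given. Repeated identifiers (9 to 16 rows per table) were summed. Of the identifiers, 54409 matched GENCODE M21, which gave gene types. Coordinates are those deposited.

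Values were tested as log2(TPM + 1), a scale that understates changes of low genes, with limma 3.58.1 (R 4.3.3, mean-variance trend) on the 15727 genes averaging at least 1 TPM. The model had 6 groups and 11 contrasts, two-sided, with a call at Benjamini-Hochberg adjusted p under 0.05 over all tested genes. DESeq2, which the authors used, was not, because TPM values are not counts. With 2 libraries a group no exact permutation test can pass the threshold. Tables were made with pandas 2.3.3 and NumPy 2.4.6 in Python 3.11.15, and figures with matplotlib 3.10.9.

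The 10 genes, the lists and the rule for naming genes were chosen with earlier results of these data known. The rule names the 10 genes, Dnmt3a and Dnmt3b, paralogs, overlapping genes, at most the 3 highest and 3 lowest called of 73 further pathway genes per response and per comparison of lines, and the 3 genes most like each of 3 members. A gene that the rule names is not reported here. Genes with a difference in response between lines, partners of members (Tsc1, Mlst8, Eif4e) and named markers were added after their values were seen. Alternatives were a pseudocount of 0.1, no filter, median-ratio and protein-coding rescaling, only the groups compared, a replicate block and each library left out. The methods state that time points of a biological replicate were processed in parallel, and the block took the replicate numbers of the labels to mark this. Same-numbered libraries of a line deviated from their group means with r of -0.104 to 0.0996.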

Additional observations from a re-analysis of the deposited data

Results flagged for a closer look

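By limma's test of the difference in response between the lines, none of the 10 genes was called, and 8 of the 73 further pathway genes were called at one time or both. Of the 73, 6.85% were called at 72 h and 9.59% at 144 h, near the 5.23% and 8.59% of all tested genes. Values are the log2 response of DNMT3ABKO cells minus that of KH cells, with the adjusted p over all tested genes. Ddit4l, the paralog of Ddit4, differed by 0.80 at 72 h (adjusted p = 0.0242) and 1.48 at 144 h (adjusted p = 0.000327), since it fell in KH cells and rose at 144 h in DNMT3ABKO cells. Grb10 differed by 0.73 (adjusted p = 0.0158) and 0.71 (adjusted p = 0.0117). In KH cells it went from 65.1 and 75.9 TPM at 0 h to 30.0 and 29.2 TPM at 72 h, and in DNMT3ABKO cells from 86.7 and 107 TPM to 69.4 and 66.8 TPM. Grb10 is an imprinted gene, and the part of DNA methylation in its levels was not tested.

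Eif4ebp3, the least abundant of the 4E-BP genes, differed by -1.26 at 72 h (adjusted p = 0.00283) and -0.95 at 144 h (adjusted p = 0.00733), although it stayed below 2 TPM in all 12 libraries. The Rag GTPase gene Rragb differed by -0.53 (adjusted p = 0.0413) and -0.58 (adjusted p = 0.0197), and the autophagy kinase gene Ulk1, whose product mTOR restrains, by -0.50 at 72 h (adjusted p = 0.0098). At 144 h the arginine sensor gene Castor1 differed by -0.50 (adjusted p = 0.0234), the insulin receptor gene Insr by -0.60 (adjusted p = 0.0422) and Pik3ca, a catalytic subunit of PI3 kinase, by -0.80 (adjusted p = 0.0324). The higher spread of DNMT3ABKO cells at 0 h enters each of these differences. At 0 h Castor1 and Eif4ebp3 were already called higher in DNMT3ABKO cells, by 0.41 and 0.73 (limma adjusted p = 0.0109 and 0.00458).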

How the results depend on the processing

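Ddit4, Deptor, Eif4ebp1, Mtor and Tsc2 were called in all 4 comparisons with 0 h under every one of the 18 alternatives, and 26 of the 37 calls on the 10 genes held throughout. Of 1980 values of the 10 genes under alternatives, 57 lost a call and 40 gained one, and 67 changed sign, each between values that both missed the threshold. The weakest calls were those of Rptor, those of Akt1s1 and Rictor at 72 h, that of Rps6kb1 in KH cells, and Deptor between lines and from 72 to 144 h. TPM tables keep no depth, so what depth limits cannot be given, and 2 libraries a group limit each interval.

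Over all genes, 7520 of 15727 tested were called in KH cells at 72 h, and 7464 of 37364 with no filter. Between the lines at 0, 72 and 144 h, 1425, 3029 and 4166 were called. These became 1989, 3786 and 4937 of 15714 under median-ratio rescaling and 2147, 4092 and 5130 of 13201 under protein-coding rescaling. With only the groups compared they were 303, 5143 and 5482. Among the 10 genes, calls in KH cells at 72 h numbered 8, and 5 with no filter. Leaving out 1 library moved that number both ways. From 72 to 144 h the 2 calls became 1 to 2 in KH and 1 to 3 in DNMT3ABKO cells with each library left out. Between the lines at 0 h the count of 0 became 1 under either rescaling and 0 to 3 with each library left out. At 72 h the count of 1 became 3 under either rescaling and with only the groups compared, and 0 to 3 with each library left out. At 144 h the count of 0 became 1 in the same 3 alternatives and 0 to 1 with each library left out, and the count of 0 for the difference in response became 0 to 1 at either time.

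Among the 73 genes, the 15 calls in KH cells from 72 to 144 h became 8 with no filter, 23 under median-ratio rescaling, 24 under protein-coding rescaling and with only the groups compared, and 2 to 23 with each library left out. Over all genes, the 3597 of 15727 called in KH cells from 72 to 144 h became 3364 of 37364 with no filter. They became 4403 of 15714 under median-ratio rescaling and 4827 of 13201 under protein-coding rescaling. With only the groups compared, the 8800 calls over all tested genes in DNMT3ABKO cells at 72 h became 5934. The 9061 at 144 h became 6570. Among the 73, 40 calls in these cells at 72 h became 17 under that setting, and 41 at 144 h became 21. Their 19 calls from 72 to 144 h ranged from 10 to 26 with each library left out. Between the lines at 0 h, 9 calls became 3 with no filter, 16 under protein-coding rescaling, 0 with only the groups compared and 1 to 33 with each library left out (33 without DNMT3ABKO replicate 2). At 72 h, 13 became 22 under protein-coding rescaling, 25 with only the groups compared and 6 to 22 with each library left out, and at 144 h 17 ranged from 7 to 25. For the difference in response at 72 h, 5 calls became 3 with no filter, 9 under either rescaling, 2 with only the groups compared and 1 to 16 with each library left out. At 144 h, 7 became 11 and 14 under median-ratio and protein-coding rescaling, 3 with only the groups compared and 3 to 18 with each library left out. Over all genes, the 1425 calls between the lines at 0 h became 1397 of 37364 with no filter. For the difference in response, the 823 and 1351 calls became 1258 and 2075 under median-ratio rescaling. Protein-coding rescaling gave 1565 and 2310, and the 823 at 72 h became 843 of 37364 with no filter. With only the groups compared, the 1425 calls over all tested genes between the lines at 0 h became 303. Those for the difference in response, 823 and 1351 at 72 and 144 h, became 437 and 757. In the other direction, 3597 in KH cells between 72 and 144 h became 5245. The 3029 between the lines at 72 h became 5143. The cause of these shifts was not tested.

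Under the replicate block 7 of the 10 genes were called in KH cells at 72 and at 144 h and in DNMT3ABKO cells at 72 h, in place of 8, and 3 of the 73 genes in place of 5 for the difference in response at 72 h. The calls lost were those of Akt1s1 and Rptor given above, and the block changed no other call on the 10 genes. Over all tested genes the block gave 7133 calls in KH cells at 72 h and 7771 at 144 h, in place of 7520 and 8070. In DNMT3ABKO cells at 72 h it gave 8456 in place of 8800, and for the difference in response at 72 h 545 in place of 823. Over all tested genes, median-ratio rescaling moved the share of higher calls from 31.7% to 43.9% in KH and from 32.3% to 47.6% in DNMT3ABKO cells from 72 to 144 h. Protein-coding rescaling moved it from 64.5% to 50% and from 56.9% to 44.0% for the difference in response at 72 and 144 h.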

Other observations

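Further genes of the pathway named by the same rule changed beside the 10. In KH cells Insr, the insulin receptor, rose by 0.84 on the log2 scale at 144 h (limma adjusted p = 0.000154), from 4.53 and 4.56 TPM to 9.67 and 8.20 TPM, and Lamtor4, a subunit of the Ragulator complex that anchors the Rag GTPases on lysosomes, fell by 0.94 (adjusted p = 0.000144). In DNMT3ABKO cells Lpin1, a phosphatidate phosphatase and mTOR substrate, fell by 1.03 at 144 h (adjusted p = 1.42e-05), and Maf1, a repressor of RNA polymerase III that mTOR phosphorylates, rose by 0.68 (adjusted p = 2.75e-05). At 72 h in these cells Inpp5d, a lipid phosphatase best known from blood cells, fell by 1.07 (adjusted p = 1.25e-05), while the sum over 8 macrophage markers went from 227 to 251 TPM to 108 to 114 TPM, and the part of such cells in it was not tested.

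Between the lines, 2 of the 7 genes of the AMPK branch were called lower in DNMT3ABKO cells at each time and none higher. This share of 28.6% stood beside 9.06%, 19.3% and 26.5% of all tested genes at 0, 72 and 144 h, and at 144 h was near it. The 2 genes were the AMPK subunit genes Prkag2 and Prkab1. Prkag2 was at -0.58 and -0.65 at 0 and 72 h (limma adjusted p = 0.0441 and 0.0153). Prkab1 was at -0.47 and -0.85 at 0 and 144 h (adjusted p = 0.0437 and 0.000726). With only the groups compared, no gene of the pathway list was called at 0 h, so neither of these 0 h calls held. Igf1r, the receptor of insulin-like growth factor 1, was lower at 144 h by a log2 difference of -0.85 (adjusted p = 0.000573), at 6.08 and 5.75 TPM against 12.9 and 10.2 TPM in KH cells.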
